A study of Rattus norvegicus with 8 samples.

Results

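Cytochrome P450 families 1 to 4 hold the haem enzymes that oxidize drugs, other foreign chemicals, steroids and fatty acids. Their members on the array were taken by symbol from the platform annotation, from probe sets that name exactly 1 gene, and each gene was read on its brightest probe set over the 8 arrays. Of 14217 genes, 42 belonged to these families, on 46 probe sets. RNA was measured in ground whole left kidneys of female Sprague-Dawley rats aged 29 weeks, 1 rat per array, with 4 Si deplete and 4 Si replete rats. All of them had eaten a feed low in silicon (Si) for 26 weeks. The Si deplete rats, named Si deprived in the sample titles, drank water low in Si and ingested 0.17 mg Si daily per kg of body weight, while the Si replete rats drank water with added orthosilicic acid and ingested 4.1 mg. The comparison asks whether Si intake alters RNA of these genes in the kidney. A level is a log2 gcRMA value, a background-corrected and normalized signal of 1 probe set, so that a difference of 1 is a doubling, and levels of different probe sets cannot be ranked against each other.

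P450 enzymes sit in the endoplasmic reticulum and receive electrons from the reductase Por and from cytochrome b5. In the kidney they are best known for the metabolism of arachidonic acid in the proximal tubule and in blood vessels. Epoxygenases of the Cyp2c and Cyp2j subfamilies make epoxides that relax vessels and lower sodium reabsorption, and omega-hydroxylases of the Cyp4a and Cyp4f subfamilies make a hydroxy acid that constricts arterioles. Family 1 genes are classical targets of the aryl hydrocarbon (Ah) receptor, which binds dioxins and many plant compounds, and most Cyp2 and Cyp3 enzymes of drug metabolism are liver enzymes.

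Array medians were 3.85 to 3.92 in the Si deplete and 3.80 to 3.84 in the Si replete arrays, so they were slightly higher in every Si deplete array. On the first principal component, with 42.1% of the variance, Si deplete replicate 1 stood apart, at 64.0 against -25.9 to 19.2 for the other arrays. Every proximal tubule marker, 22 of 22, had a mean of 4 or more, whereas 0 of 8 measured adrenal markers did, and albumin, the defining liver transcript, had a mean of 2.46. Liver markers with a mean of 4 or more were 3 of 10, namely Ttr, Fgb and Cps1. Adipose markers with such a mean were 3 of 7 measured, namely Adipoq, Fabp4 and Cidec. The mean deviation of the adipose list ran from -0.55 in Si deplete replicate 1 to 0.51 in Si replete replicate 1. Kidney injury markers, like all lists here, were chosen with earlier results of these data known. They moved with the groups: 10 of 12 were higher in Si deplete kidneys at an unadjusted p under 0.05, against 10.5% of all genes. None of the 12 passed after adjustment on its brightest probe set in limma. Their mean deviation from each gene's mean over the arrays lay at 0.03 to 1.27 among the Si deplete kidneys against -0.89 to -0.14 among the Si replete ones, highest in Si deplete replicate 1. Their part in the P450 values below was not tested. In whole tissue, fewer cells of a type and less RNA per cell cannot be told apart.

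A mean of 4 over the 8 arrays served as the lower end of the usable scale. Of the 42 genes, 16 had a mean of 4 or more, between 4.39 and 13.23: Cyp1a1, Cyp2c23, Cyp2d2, Cyp2d4, Cyp2e1, Cyp2j4, Cyp2s1, Cyp2t1, Cyp2u1, Cyp4a1, Cyp4a3, Cyp4a8, Cyp4b1, Cyp4f1, Cyp4f6 and Cyp4v3. The other 26, at 1.31 to 3.74, were not clearly above background. They were Cyp1a2, Cyp1b1, Cyp2a1, Cyp2a2, Cyp2a3, Cyp2b3, Cyp2b12, Cyp2b21, Cyp2c6v1, Cyp2c7, Cyp2c11, Cyp2c12, Cyp2c13, Cyp2c22, Cyp2d3, Cyp2f4, Cyp2g1, Cyp2j3, Cyp2j10, Cyp3a2, Cyp3a9, Cyp3a18, Cyp3a23-3a1, Cyp4f4, Cyp4f5 and Cyp4f17. The genes nearest below 4 were Cyp4f17 (3.74), Cyp4f5 (3.30) and Cyp2j10 (3.18), and those nearest above it were Cyp2d4 (4.39), Cyp2t1 (5.08) and Cyp2s1 (6.20). Genes over and under 4 lay side by side in the genome. In the gene order of RefSeq assembly GRCr8, the run Cyp4a8, Cyp4a3, Cyp4a1 and Cyp4b1 on chromosome 5 was at 4 or more in 4 of 4. A run of 10 Cyp2a, Cyp2b, Cyp2f, Cyp2g, Cyp2s and Cyp2t genes on chromosome 1 was under 4 in 8, the exceptions being its end genes Cyp2s1 and Cyp2t1. Cyp2b1 and Cyp2b2 are not among the 10, because they were named only on a shared probe set, which had a mean of 8.76. All 5 genes of the Cyp2c run and the separate Cyp2c11 were under 4, while Cyp2c23, which stands apart from them on the same chromosome, had a mean of 12.64.

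Promoters of 4 of these genes are shown because they include genes on both sides of the mean of 4, with and without the motifs searched. Each is the 250 bases before the RefSeq start in GRCr8, read 5′ to 3′ on the gene's strand. Capitals mark the TATA box letters TATAAA (sense strand), the nuclear receptor half-site letters AGGTCA (both strands) and the Ah receptor core letters GCGTG (both strands). Cyp2c23 lies at chr1:252863068-252863317 (minus strand), Cyp2c11 at chr1:246174966-246175215 (plus strand), Cyp2e1 at chr1:205269717-205269966 (plus strand) and Cyp4f1 at chr7:12672554-12672803 (minus strand).
Cyp2c23: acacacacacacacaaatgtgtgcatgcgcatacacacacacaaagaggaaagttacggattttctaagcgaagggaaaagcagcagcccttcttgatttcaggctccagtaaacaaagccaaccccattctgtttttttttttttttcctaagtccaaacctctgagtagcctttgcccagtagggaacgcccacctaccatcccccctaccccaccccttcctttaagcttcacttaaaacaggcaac
Cyp2c11: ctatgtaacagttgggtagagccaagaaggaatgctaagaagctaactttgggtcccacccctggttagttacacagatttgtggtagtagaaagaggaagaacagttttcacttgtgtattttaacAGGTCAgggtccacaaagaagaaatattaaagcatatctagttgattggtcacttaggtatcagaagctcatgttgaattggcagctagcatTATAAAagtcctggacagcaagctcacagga
Cyp2e1: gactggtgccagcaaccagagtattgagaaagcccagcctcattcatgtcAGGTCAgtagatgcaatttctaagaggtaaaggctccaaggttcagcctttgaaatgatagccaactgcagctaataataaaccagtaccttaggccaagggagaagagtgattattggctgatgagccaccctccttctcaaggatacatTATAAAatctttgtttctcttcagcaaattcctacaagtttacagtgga
Cyp4f1: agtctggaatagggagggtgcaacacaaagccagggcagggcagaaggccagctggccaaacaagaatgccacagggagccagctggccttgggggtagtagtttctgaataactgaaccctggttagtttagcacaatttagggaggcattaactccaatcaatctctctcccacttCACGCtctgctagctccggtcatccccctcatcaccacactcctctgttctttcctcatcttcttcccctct

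The epoxygenase gene Cyp2c23 held none of the 3 motifs in this window. Cyp2c11, a drug and steroid hydroxylase of male liver that was at background here, had TATAAA starting 31 bases and AGGTCA starting 123 bases before the gene start, and Cyp2e1 had them at 49 and 200 bases. Cyp4f1 had GCGTG on the opposite strand, 72 bases before the start. Among the 35 P450 genes with a promoter entry, 25.7% held TATAAA against 8.38% of 27457 genes with an entry, 34.3% held AGGTCA against 13.7%, and 17.1% held GCGTG against 27.2%. TATAAA stood in 1 of 13 promoters of genes with a mean of 4 or more (Cyp2e1) and in 8 of 22 of those under 4. The counts for AGGTCA were 4 of 13 and 8 of 22, and for GCGTG 4 of 13 and 2 of 22. Without a promoter entry were Cyp1a1, Cyp4a1 and Cyp4v3, with means of 4 or more, and Cyp2a2, Cyp2c6v1, Cyp4f4 and Cyp4f17, under 4. The GCGTG counts thus leave out the Ah receptor target Cyp1a1. Several Cyp2a and Cyp2c genes are near copies of each other, so these promoters are not independent, and matching letters are a description and not binding sites.

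No P450 gene of families 1 to 4 passed at an adjusted p under 0.1 in limma, with 0 higher and 0 lower in Si deplete kidneys. Across all genes 0.204% passed at that threshold, 0.169% higher and 0.0352% lower, and the count of 0 among 42 is read against that small share. At an unadjusted p under 0.05, 0 were higher and 3 were lower (Cyp2a3, Cyp2d3 and Cyp2j4), which is 7.14% against 18.5% of all genes, of which 10.5% were higher and 7.95% lower. Storey's q-value under 0.1 also called 0. Complete separation of the 4 Si deplete from the 4 Si replete kidneys was found in 1 gene that was higher (Cyp1b1) and 3 that were lower (Cyp2a3, Cyp2j4 and Cyp4f1). That is 9.52% against a background of 11.9%, with 6.45% higher and 5.49% lower. Among genes with a mean of 4 or more, 6.25% of the 16 P450 genes had an unadjusted p under 0.05 against 22.5% of 9489 genes, and 12.5% separated against 14.9%.

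Taken as Si deplete minus Si replete, the median log2 fold change of the 42 was -0.02, beside 0.00 for all genes. For the 16 with a mean of 4 or more it was -0.16, beside 0.01, with 12 lower and 4 higher, of which Cyp4a3 rounds to 0.00. Among all 9489 genes with such a mean, 4586 were lower. Differences of the 16 ran from -0.54 (Cyp2e1) to 0.51 (Cyp4b1), and those of the 26 under 4 from -0.37 to 0.48. Without Si deplete replicate 1, the median of the 16 was -0.03, beside -0.01, and 11 were lower, beside 4857 of the 9489. The 95% interval of the difference lay inside a 2-fold change either way for 12 of the 16, all but Cyp1a1, Cyp2e1, Cyp2s1 and Cyp4b1. It lay inside a 1.5-fold change for 7 (43.8%, against 69.8% of all genes with such a mean).

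**Figure D1:**
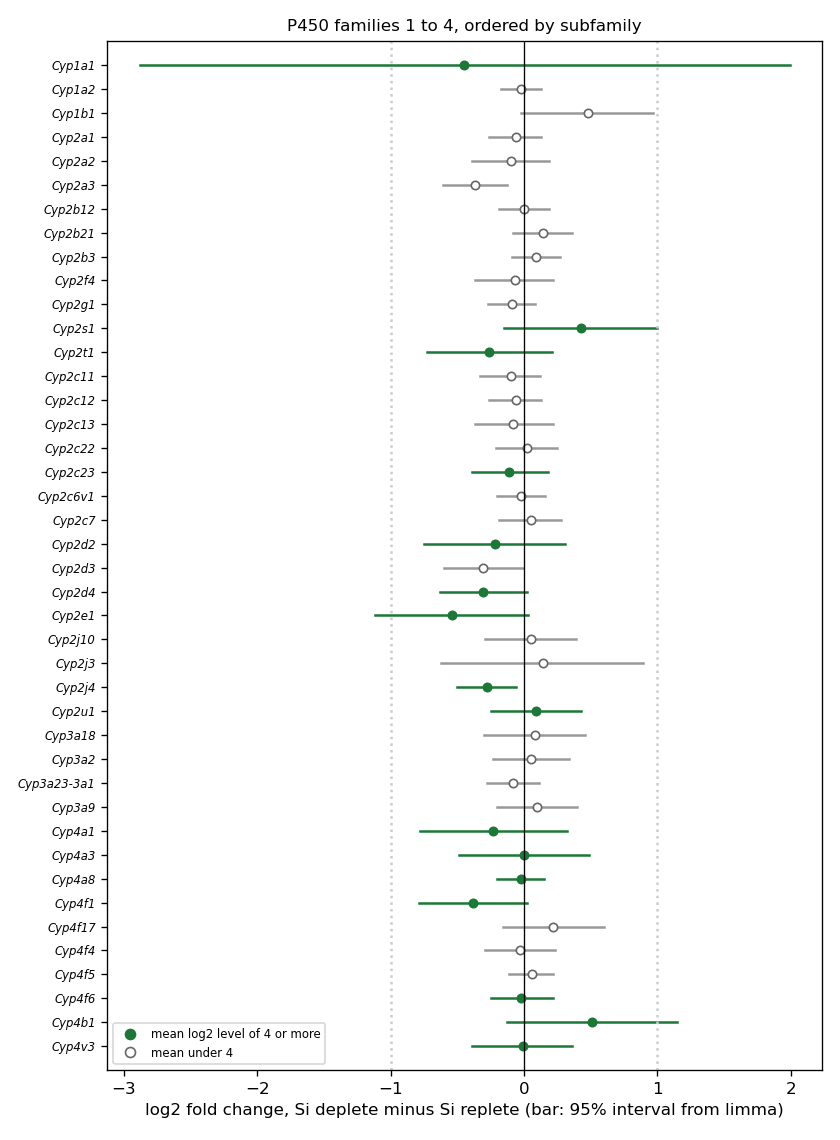
Log2 fold change of the 42 P450 genes (x axis, with Si replete subtracted from Si deplete), 1 gene per line, with the 95% interval from limma as a bar. Filled green points are the 16 genes with a mean level of 4 or more, open points the 26 under 4, and dotted lines mark 2-fold changes. Most points lie near 0, and the bar of Cyp1a1 runs from -2.88 to 1.99.

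Among family 1 genes, Cyp1a1, which oxidizes polycyclic aromatic compounds, differed far more between arrays of the same diet than between diets. Its level was 6.78, 9.24, 6.08 and 9.0 in the Si deplete kidneys, in the order of replicates 1 to 4 used throughout, against 9.60, 10.28, 7.37 and 5.62 in the Si replete kidneys. High and low kidneys occurred in both groups, and the lowest and highest kidney of all were both Si replete. The range over the 8 kidneys was 4.66, or 25.3-fold, and the pooled standard deviation within groups of 1.88 ranked 9 of 14217 genes. The difference of -0.45 (standard error 1.08, 95% interval -2.88 to 1.99, adjusted p = 0.879 from limma) leaves room for a large change in either direction, and its sign differed in 3 of 16 alternative fits.

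Cyp1b1, which hydroxylates oestradiol and retinoids, was near background at 2.89, 2.98, 2.71 and 3.87 in Si deplete and 2.69, 2.61, 2.56 and 2.67 in Si replete kidneys. Every Si deplete value lay above every Si replete value, although the nearest of them were 2.71 and 2.69. The log2 fold change was 0.48 (standard error 0.22, adjusted p = 0.350 from limma), and 0.22 without Si deplete replicate 4. Cyp1a2, a liver enzyme, stayed between 1.86 and 1.98. The 3 other measured Ah receptor target genes with a mean of 4 or more scattered less than Cyp1a1. Nqo1, a quinone reductase, ranged from 7.09 to 8.29, Tiparp, a repressor of that receptor, from 7.03 to 7.90, and Aldh1a3 from 7.31 to 8.70. The other measured genes of the list, at means of 1.75 and 2.14, were too near background to show scatter. Nqo1 was higher by 0.51 (standard error 0.19, adjusted p = 0.272), highest in Si deplete replicate 1. Of the 5 measured genes of this list, 1 was higher and 0 were lower at an unadjusted p under 0.05, and 0 passed after adjustment.

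**Figure D2:**
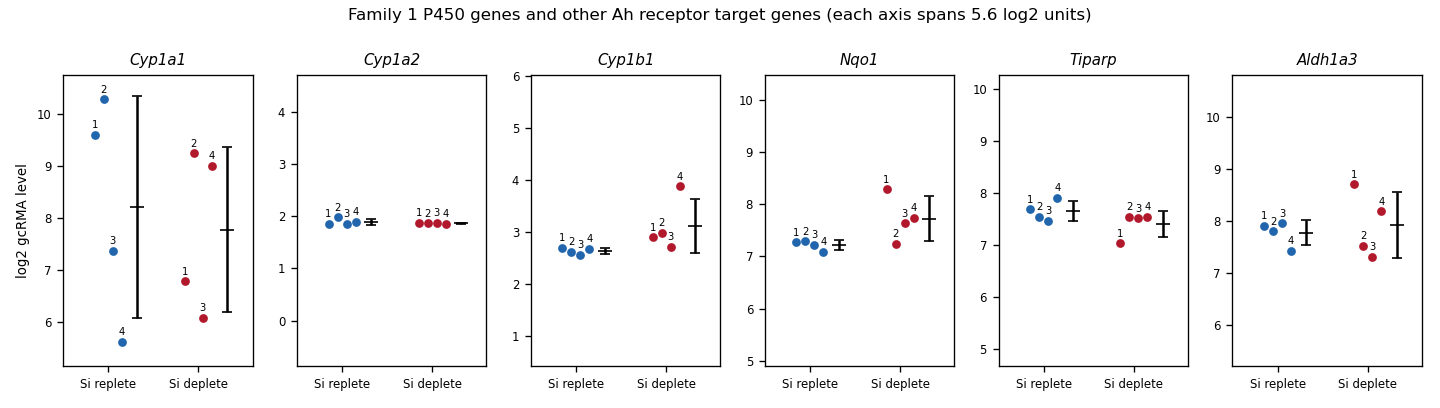
Log2 gcRMA level (y axis, each spanning 5.6 units) of the 3 family 1 genes and of 3 other Ah receptor target genes in Si replete (blue) and Si deplete (red) kidneys, numbered by replicate, with the mean and standard deviation (n = 4) as a bar beside each group. Cyp1a1 runs from 5.62 to 10.28 with high and low kidneys in both groups, and Nqo1, Tiparp and Aldh1a3 are much tighter. Cyp1a2 and Cyp1b1 are near background, where scatter can hardly show.

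Among the epoxygenases, none of 10 Cyp2c and Cyp2j genes passed. Cyp2c23, the main arachidonate epoxygenase of rat kidney, had levels of 12.30, 12.80, 12.75 and 12.51 in Si deplete and 12.58, 12.70, 12.62 and 12.90 in Si replete kidneys. The groups overlapped, with a log2 fold change of -0.11 (standard error 0.13, 95% interval -0.39 to 0.18, adjusted p = 0.724), and -0.01 without Si deplete replicate 1. The interval over all 8 kidneys excludes a 1.5-fold change in either direction. The other 6 Cyp2c genes were at background, and none of the 7 had an unadjusted p under 0.05. Cyp2c11 averaged 1.73, with a difference of -0.10.

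Cyp2j4, an epoxygenase known from the intestine, had the smallest p of the genes with a mean of 4 or more. It read 7.62, 7.83, 7.89 and 7.96 in Si deplete against 8.03, 8.14, 8.25 and 8.00 in Si replete kidneys. The groups did not overlap, but the highest Si deplete and lowest Si replete kidney were 7.96 and 8.00. The log2 fold change was -0.28 (1.21-fold, standard error 0.10, 95% interval -0.50 to -0.06). Its unadjusted p was 0.0194 and its adjusted p 0.256 from limma. The exact 2-sided permutation test gave p = 0.0286, the smallest that 4 against 4 allow. Every gene whose groups do not overlap has this p, so it adds nothing to the separation. Without Si deplete replicate 1 the difference was -0.21. Cyp2j3, a related epoxygenase, scattered from 2.45 to 4.03 with both ends in Si replete kidneys (0.14, standard error 0.33).

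Soluble epoxide hydrolase, encoded by Ephx2, breaks down the products of these enzymes; it was singled out after its values were seen. It had levels of 4.13, 9.66, 5.29 and 4.34 in Si deplete and 10.44, 6.12, 10.53 and 5.56 in Si replete kidneys. As with Cyp1a1, high and low kidneys occurred in both groups, 1 and 3 against 2 and 2. The difference of -2.31 had a standard error of 1.52 and an adjusted p of 0.502. Si deplete replicate 2 and Si replete replicate 1 were high for both genes, while Si deplete replicates 1 and 3 and Si replete replicate 4 were low for both. Si deplete replicate 4 and Si replete replicate 2 were high for Cyp1a1 alone, and Si replete replicate 3 for Ephx2 alone.

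Omega-hydroxylases of the Cyp4a subfamily did not separate the groups. On its brightest probe set, Cyp4a8 was the steadiest P450 gene with a mean of 4 or more. It read 13.20, 13.27, 13.34 and 13.08 in Si deplete and 13.27, 13.23, 13.26 and 13.21 in Si replete kidneys. Its difference of -0.02 (standard error 0.08) had a 95% interval of -0.20 to 0.15. Its second probe set scattered more, at 12.30, 12.73, 12.74 and 12.36 against 12.73, 12.53, 12.64 and 12.58, and differed by -0.09 (standard error 0.12). Cyp4a1, the classical gene induced by peroxisome proliferators, stood at 10.30, 11.21, 11.19 and 10.41 against 10.61, 11.00, 11.02 and 11.38. That is a difference of -0.23 (standard error 0.24, 95% interval -0.78 to 0.32, adjusted p = 0.698), and of -0.07 without Si deplete replicate 1. For Cyp4a3 the levels were 10.91, 11.61, 11.55 and 12.11 in Si deplete and 11.31, 11.61, 11.62 and 11.64 in Si replete kidneys, so the Si deplete kidneys held both the lowest and the highest value. Its mean difference was 0.00 (standard error 0.22, 95% interval -0.49 to 0.49), and 0.21 without Si deplete replicate 1. A further probe set shared by Cyp4a3 and Cyp4a2 differed by -0.02 (standard error 0.10).

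In the Cyp4f subfamily, Cyp4f1, which omega-hydroxylates leukotriene B4 and arachidonate, read 10.56, 11.28, 11.46 and 11.37 in Si deplete against 11.54, 11.49, 11.62 and 11.57 in Si replete kidneys. The groups did not overlap, and Si deplete replicate 1 lay well below the other 7 kidneys. The log2 fold change was -0.38 (1.31-fold, standard error 0.18, 95% interval -0.79 to 0.02, adjusted p = 0.356 from limma). The exact 2-sided permutation p of 0.0286 again only restates that the groups did not overlap. Without Si deplete replicate 1 the difference was -0.18. The remaining 4 genes, of which Cyp4f6 alone had a mean of 4 or more, differed by -0.03 to 0.22.

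Cyp2e1, which oxidizes ethanol, acetone and other small molecules, had the largest negative difference. Its levels were 11.40, 12.11, 12.55 and 12.39 in Si deplete and 12.29, 12.98, 12.45 and 12.91 in Si replete kidneys. The groups overlapped, and Si deplete replicate 1 was again lowest. The log2 fold change was -0.54 (1.46-fold, standard error 0.25, 95% interval -1.12 to 0.03, adjusted p = 0.356), and -0.31 without that kidney.

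Drug-metabolizing Cyp2d genes were lower in 3 of 3, none after adjustment. Cyp2d2 stood at 9.70, 10.65, 10.72 and 10.24 in Si deplete against 10.43, 10.60, 10.22 and 10.93 in Si replete kidneys, with wide overlap (-0.22, standard error 0.23, adjusted p = 0.695, and -0.01 without Si deplete replicate 1). Cyp2d4, the form known from brain, was at 4.03, 3.92, 4.42 and 4.55 against 4.45, 4.70, 4.49 and 4.53. Its difference of -0.31 (standard error 0.14, adjusted p = 0.356) was -0.10 on its second probe set, which had a mean of 3.60. Cyp2d3, at background, differed by -0.31 (standard error 0.13, unadjusted p = 0.0440, adjusted p = 0.324 from limma). A probe set that names both Cyp2d5 and Cyp2d1, and so lies outside the 42, read 6.15, 6.97, 7.66 and 7.35 against 8.13, 7.54, 7.05 and 7.92 (-0.63, standard error 0.33, adjusted p = 0.413). Probe sets of such close paralogues may also bind each other's RNA.

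Cyp4b1, which oxidizes fatty acids and activates furan toxins, had the largest positive difference, with 12.18, 11.32, 11.16 and 11.37 in Si deplete and 11.42, 10.87, 11.37 and 10.33 in Si replete kidneys. The highest kidney was Si deplete replicate 1 and the lowest Si replete replicate 4, and the others mixed. The log2 fold change of 0.51 (1.42-fold, standard error 0.28, 95% interval -0.13 to 1.15) had an adjusted p of 0.430 and was 0.29 without Si deplete replicate 1. Cyp2s1, a retinoid-oxidizing enzyme of epithelia that the Ah receptor also controls, read 6.99, 6.22, 6.78 and 5.66 against a tight 6.12, 5.84, 6.00 and 5.97. The Si deplete kidneys thus lay on both sides of all Si replete kidneys. Its difference of 0.43 (standard error 0.25, adjusted p = 0.456) was 0.68 without Si deplete replicate 4 (adjusted p = 0.156 from limma) and 0.24 without Si deplete replicate 1.

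The remaining genes with a mean of 4 or more gave small differences. Cyp2t1, whose substrates are little known, had 4.32 in Si deplete replicate 1 and 4.97 to 5.49 in the other 7 kidneys (-0.26, standard error 0.21, and -0.05 without that kidney). Cyp2u1, a fatty acid hydroxylase, ranged from 6.02 to 6.61 (0.09, standard error 0.15). Cyp4v3, another fatty acid hydroxylase, ranged from 8.53 to 9.33, with both ends in Si deplete kidneys (-0.01, standard error 0.17), and Cyp4f6 from 6.46 to 6.90, likewise with both ends in Si deplete kidneys (-0.02, standard error 0.10). In limma the adjusted p was 0.584 for Cyp2t1, 0.819 for Cyp2u1, 0.980 for Cyp4v3 and 0.956 for Cyp4f6.

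Of the 26 genes under 4, Cyp2a3, a coumarin hydroxylase of lung and nose, had the smallest p of all 42. It read 1.51, 1.83, 1.85 and 1.85 in Si deplete and 1.97, 2.26, 2.21 and 2.10 in Si replete kidneys, without overlap but near the bottom of the scale (-0.37, standard error 0.11, unadjusted p = 0.00647, adjusted p = 0.205 from limma). All 4 Cyp3 genes, the main drug oxidases of liver and gut, were under 4 and differed by -0.08 to 0.10. That range includes Cyp3a9, a female-predominant form, at 0.10 (standard error 0.13). Such values near background give no bound on a change in RNA that the probe sets did not detect.

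**Figure D3:**
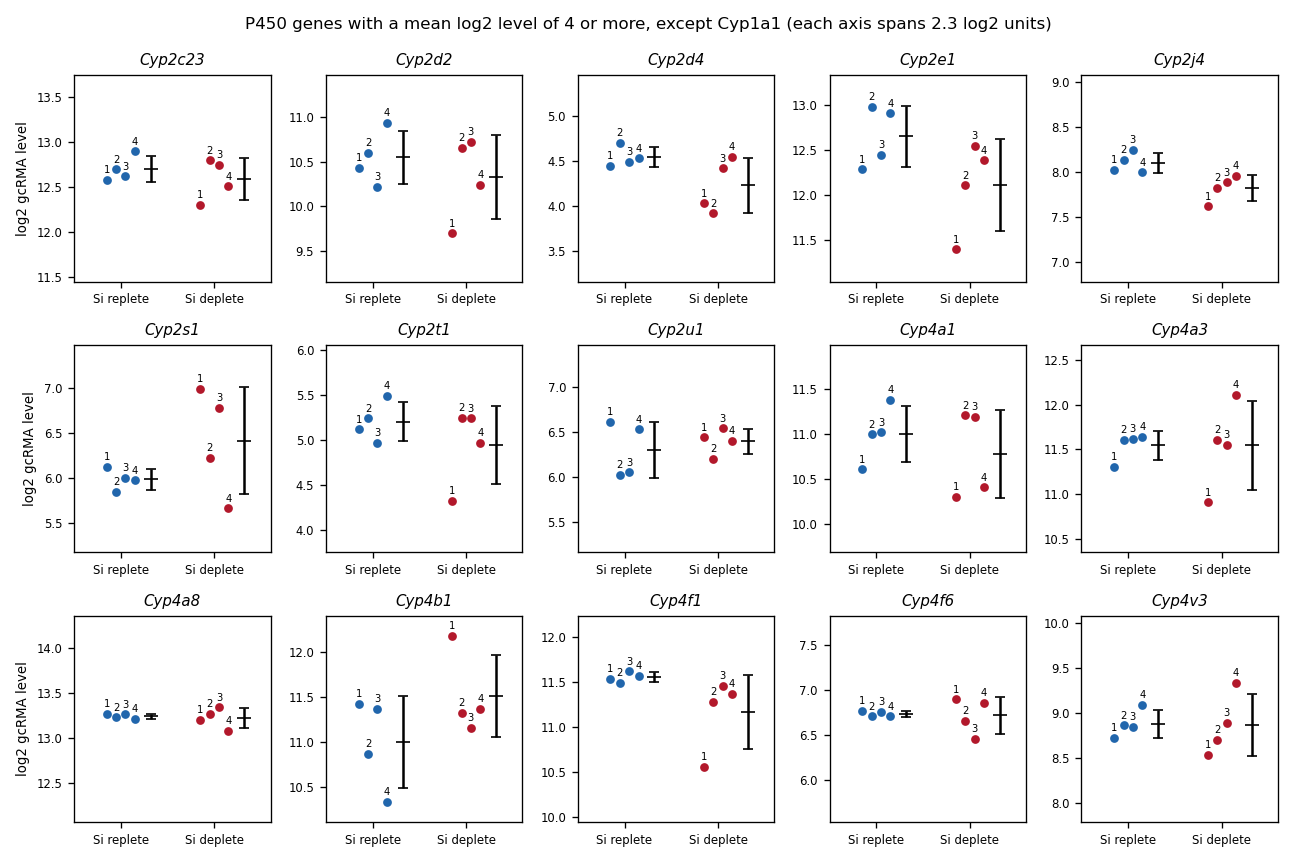
Log2 gcRMA level (y axis, each spanning 2.3 units) of 15 P450 genes with a mean of 4 or more, all but Cyp1a1, in Si replete (blue) and Si deplete (red) kidneys, numbered by replicate, with the mean and standard deviation (n = 4) as a bar beside each group. Only Cyp2j4 and Cyp4f1 separate the groups, and Si deplete replicate 1 is the lowest kidney in 9 panels and the highest in 3.

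Much of the variation lay between arrays of the same diet group. With 1 array per rat, differences between rats and between arrays cannot be told apart. The median pooled standard deviation within groups was 0.32 for the 16 P450 genes and 0.177 for all genes with a mean of 4 or more. Of these 16, Cyp1a1 ranked 9, Cyp4b1 647, Cyp2e1 891 and Cyp4a8 12971 of 14217 genes by that deviation, from the widest down. Si deplete replicate 1 was the lowest of the 8 kidneys for 9 of the 16 (56.2%, against 22.1% of all genes with such a mean): Cyp2c23, Cyp2d2, Cyp2e1, Cyp2j4, Cyp2t1, Cyp4a1, Cyp4a3, Cyp4f1 and Cyp4v3. It was the highest for Cyp2s1, Cyp4b1 and Cyp4f6 (18.8%, against 31.7%). Its median deviation from the mean of the 8 kidneys was -0.35 over the 16 and 0.04 over all genes with such a mean. No other kidney was lowest for more than 2 of them. The 22 proximal tubule markers had a mean deviation of -0.42 in that kidney and -0.11 to 0.30 in the other 7. Their part in these values was not tested.

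**Figure D4:**
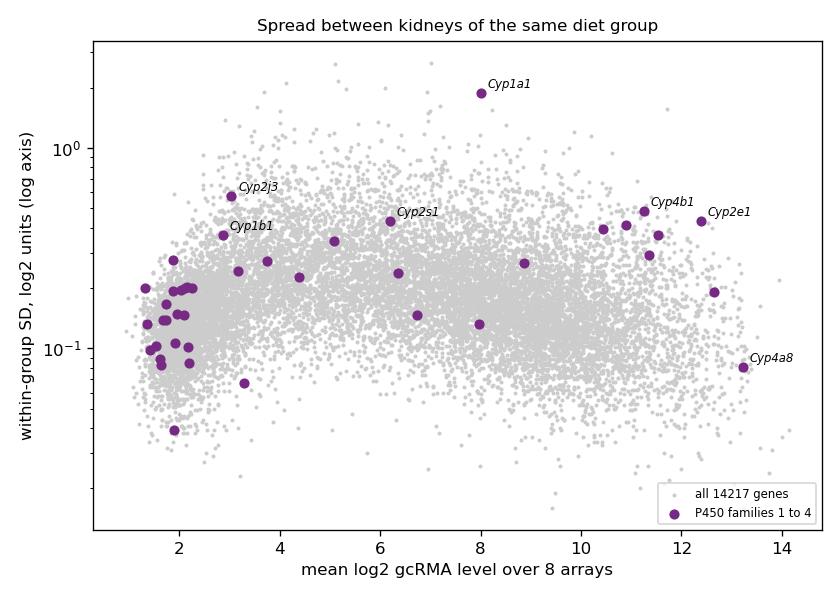
Pooled within-group standard deviation (y axis, log2 units on a log scale) against mean log2 gcRMA level (x axis) for 14217 genes (grey) and the 42 P450 genes (purple). Cyp1a1, at 1.88, stands near the top of the cloud and Cyp4a8 in its lower part.

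Genes around the P450 system were read from lists, in each of which 0 genes passed at an adjusted p under 0.1 in limma. As a background, 7102 of all 14217 genes were lower by any amount. At an unadjusted p under 0.05 in limma, 10.5% of all genes were higher and 7.95% lower. Groups did not overlap in 6.45% that were higher and 5.49% that were lower. Of 17 measured receptors and factors that control P450 genes, 1 was higher and 1 lower at an unadjusted p under 0.05, with a median log2 fold change of -0.09. The higher one was Cebpb, a factor of the acute phase response, at 0.73 (standard error 0.24, adjusted p = 0.238). The lower one, named because the count is small, was the Ah receptor gene Ahr itself, at -0.63 (standard error 0.26, adjusted p = 0.311), which had a mean of only 2.77. The 14 measured target genes of PPAR alpha, the receptor that induces Cyp4a genes, had a median of -0.11 and 0 with an unadjusted p under 0.05. Angptl4 (0.90) and Plin2 (0.71), both also tied to lipid load, had adjusted p-values of 0.343 and 0.340.

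Electron donors and haem synthesis gave small differences: of 13 measured genes, 0 had an unadjusted p under 0.05, the median was -0.04, and the range was -0.27 to 0.18. The reductase gene Por differed by -0.01 (standard error 0.16). Haem breakdown, with 4 genes, had 1 higher and 2 lower at an unadjusted p under 0.05. Blvra, which reduces biliverdin to bilirubin, was 9.21, 8.76, 9.26 and 9.32 in Si deplete and 10.33, 10.67, 10.79 and 9.63 in Si replete kidneys, without overlap (-1.22, standard error 0.24, adjusted p = 0.136). Hmox2, the constitutive haem oxygenase, was lower by a difference of -0.19 (adjusted p = 0.289), and the inducible Hmox1, with a mean of 3.57, was higher by 1.41 (standard error 0.48, adjusted p = 0.243).

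Among 13 measured enzymes that release or process arachidonate, 1 was higher and 1 lower at an unadjusted p under 0.05. Hpgd, which inactivates prostaglandins, was higher by 0.56 (standard error 0.12, adjusted p = 0.152) without overlap between groups, and Alox15, a lipoxygenase with a mean of 3.36, was lower (-1.09, adjusted p = 0.290). The list of phase 2 conjugation and amine oxidation had 17 of 19 measured genes lower and a median of -0.50. Conjugation often follows a P450 reaction, but the list also held oxidases (Fmo genes and Aox1) and the esterase Ces1d. The mean deviation of these genes was -0.70 in Si deplete replicate 1, against -0.18, -0.05 and 0.09 in the other Si deplete kidneys and 0.15 to 0.27 in the Si replete kidneys, and the part of that kidney in the median was not tested. At an unadjusted p under 0.05, 6 were lower, Fmo1 and Ces1d among them, and 1 was higher, Ugt2b10, with a mean of 1.96. The groups did not overlap in 4 of the 19, all lower, or 21.1% against 11.9% of all genes. Among them were the sulfotransferases Sult1b1 (-1.09, standard error 0.24, adjusted p = 0.156 from limma) and Sult1c3 (-0.82, standard error 0.22, adjusted p = 0.187). The groups did overlap for the thiopurine methyltransferase Tpmt (-0.50, adjusted p = 0.227). The 18 measured genes of P450 families above 4, which make steroids, bile acids and signalling lipids, had a median of -0.04, with 1 higher (Tbxas1) and 3 lower (Cyp20a1, Cyp21a1 and Cyp39a1) at an unadjusted p under 0.05. Only 4 of them had a mean of 4 or more. Of the 22 proximal tubule markers, 16 were lower, 3 of them at an unadjusted p under 0.05 (Slc7a13, Slc27a2 and Hao2), with a median of -0.15, beside -0.16 for the 16 P450 genes. Whether the tubule share of the tissue bears on the P450 values was not tested.

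Other probe sets of P450 genes were read as well. Second probe sets of Cyp2j3 and Cyp4v3, with means of 2.49 and 2.29, differed by 0.02 and -0.27. Of the 4 probe sets shared by 2 genes, that of Cyp2b2 and Cyp2b1, which are induced by phenobarbital in liver, read 8.49, 8.39, 8.62 and 8.76 in Si deplete and 8.99, 9.51, 9.67 and 7.68 in Si replete kidneys. The Si deplete kidneys were close together and fell inside the wide Si replete range (-0.40, standard error 0.38, adjusted p = 0.656). That of Cyp2a2 and Cyp2a1 had a mean of 2.70 and differed by -0.16. In limma, none of the 8 second or shared probe sets passed after adjustment or had an unadjusted p under 0.05.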

How the data were processed

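RNA of ground left kidneys, 4 Si deplete and 4 Si replete, was hybridized to Affymetrix Rat Genome arrays, 1 rat per array. The authors deposited log2 levels made by gcRMA (GCRMA 2.36.0 in the submitters' processing notes), with a summarization based on m-estimators. This step corrects background by GC content and normalizes across arrays; probe intensities were not analysed here, and the number of arrays limits the precision. After removal of 57 controls from 31099 probe sets, 31042 were tested with lmFit and eBayes of limma 3.58.1 in R 4.3.3, with Benjamini-Hochberg adjustment over all of them. The threshold of 0.1 follows the study's methods, which name modified T-statistics. Symbols come from the platform annotation, with 1 symbol for 20826 probe sets, several for 436 and none for 9780. Annotation by Entrez ID matched 42 of 42 P450 genes to RefSeq (GRCr8), which also gave gene order and 35 promoters. The gene members and lists were chosen with earlier results of these data known.

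Named P450 genes were those that passed or separated the groups with a mean of 4 or more, the 6 smallest p-values in each direction and the 10 highest means among genes with a mean of 4 or more, and genes with a known role; list genes were the 3 smallest p-values with a mean of 4 or more. Cyp1a2, Cyp2a3, Cyp4f6, Ahr, Por, Hmox1, Ephx2, Alox15, Tbxas1, Cyp21a1, Cyp39a1, Ugt2b10, Fmo1, Aox1 and Ces1d were added after their values were seen. An exact 2-sided permutation test over the 70 arrangements was a second reading for single genes. Alternatives to this fit were array weights, an intensity trend, a robust prior, a replicate block, leaving out means under 4, subtracting array medians, quantile normalization, each of 8 arrays left out, the average over all probe sets of a gene, Storey's q-value (lambda 0.5) and a threshold of 0.05. The fit was tested on simulated data. Arrays of a group correlated at 0.9892 or more and any pair at 0.9961 or less, so none were duplicates. The sources used here do not tie arrays to cages, days of killing or hybridization batches.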

Additional observations from a re-analysis of the deposited data

Results flagged for a closer look

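Cyp4a3 in Si replete replicate 1 had a level of 11.31, while the other 3 Si replete kidneys had 11.61 to 11.64. The gap to the nearest of them was 0.904 of the range of the group, above Dixon's 95% critical value for 4 samples. It was the only flag in 40 groups tested, the named P450 genes in each diet group, where about 2 flags are expected by chance.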

How the results depend on the processing

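No P450 gene of families 1 to 4 passed at an adjusted p under 0.1 in any of 16 alternative limma fits, at a threshold of 0.05 or by Storey's q-value. The smallest adjusted p of a P450 gene was 0.156 (Cyp2s1 without Si deplete replicate 4) and at most 0.422 (without Si replete replicate 2). The count at an unadjusted p under 0.05 moved more. The number higher was 0, but 1 with an intensity trend or array weights, 2 with the replicate block, and 0 to 2 with 1 array left out. The number lower was 3, but 5 with an intensity trend, 2 with array weights, 1 with means under 4 left out, 6 with array medians subtracted, 4 with quantile normalization, 5 with the replicate block, and 1 (without Si replete replicate 3) to 6 (without Si deplete replicate 3) with 1 array left out. The median log2 fold change of -0.02 became -0.16 with means under 4 left out, which leaves 16 genes, and lay between -0.06 and 0.00 with 1 array left out. Subtracting array medians, which were higher in every Si deplete than in every Si replete array, moved the P450 median to -0.08. That of all probe sets moved from -0.01 to -0.07. The P450 genes lower at an unadjusted p under 0.05 in limma then also included Cyp2d4, Cyp2e1 and Cyp4f1. Same-numbered kidneys of the 2 groups did not deviate together (correlations 0.0883, 0.0904, 0.0787 and -0.088), so no pairing by number was assumed. The causes of these changes were not tested. With 4 arrays per group and a signal near background for 26 of the 42 genes, small differences were not detectable.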
